A study of Homo sapiens with 6 samples.

Results

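The genes described here encode the enzymes that add or remove acetyl and methyl groups on histones. They were taken by name from the deposited counts. The symbols begin with KAT, KMT, KDM, SETD or PRMT and a number, or are numbered HDAC genes, SIRT1 to SIRT7, EP300, CREBBP, EZH1, EZH2 or DOT1L, on chromosomes other than Y. This gave 79 of 34234 genes. Of these, 73 are protein-coding and 6 are noncoding genes or pseudogenes that carry a matching name. RNA was sequenced after poly-A selection from HCCLM3 cells, a human hepatocellular carcinoma line of high metastatic potential. The cells had received lentivirus with a short hairpin RNA against ATXN7L3 (shATXN7L3, 3 libraries) or a control hairpin (shcontrol, 3 libraries), and the medium was changed after 16 h. Both groups carry a lentivirus and were grown in the same medium. How many hairpins or infections were used, and whether the replicates were separate cultures, is not given in the labels. P-values here therefore reflect only how far these libraries scatter, and that scatter may be technical.

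As background, ATXN7L3 holds together the deubiquitinase module within SAGA. This coactivator complex also contains the acetyltransferase KAT2A or KAT2B. The module removes ubiquitin from histone H2B. Ubiquitin on H2B stimulates the H3K4 methyltransferases of the SET1/COMPASS family and the H3K79 methyltransferase DOT1L, which ties the module to the methylation enzymes. Acetyltransferases are opposed by zinc-dependent deacetylases (HDAC) and NAD-dependent sirtuins (SIRT), and lysine methyltransferases by the KDM demethylases, while the PRMT enzymes methylate arginine.

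Library totals ran from 22757031 to 23915783 counts in shATXN7L3 and from 22376867 to 23033763 in shcontrol. ATXN7L3 itself stood at 20.6, 20.5 and 19.5 CPM (counts scaled to a library total of 1000000 with TMM factors, which correct for composition) in shATXN7L3, against 36.4, 37.5 and 37.5 CPM in shcontrol. The target had fallen in every shATXN7L3 library (log2 fold change -0.88 ± 0.056, SE, edgeR adjusted p = 6.69e-10; exact permutation test p = 0.1, the smallest that 3 against 3 libraries allow). Of the hepatocyte and hepatoma markers, 11 were in the counts and 9 of the 10 tested fell. Their summed level was 1730 to 1870 CPM in shATXN7L3 and 2140 to 2290 CPM in shcontrol, most of it KRT8 (means of 1480 and 1650 CPM). Larger falls were those of TF, at a mean of 35.9 CPM in shATXN7L3 against 206 CPM in shcontrol, SERPINA1 (5.33 against 18.6 CPM) and ALB (24.1 against 65.2 CPM). Markers of leukocytes summed to 120 to 126 CPM in shATXN7L3 and 90.3 to 110 CPM in shcontrol, nearly all of it CD68, with 4 of the 6 markers under 0.5 CPM in every library. Endothelial markers summed to 73.0 to 75.0 against 75.5 to 82.0 CPM, with 2 of 5 under 0.5 CPM, while PECAM1 fell (log2 fold change -0.64, edgeR adjusted p = 1.37e-07) and ESAM rose (0.69, edgeR adjusted p = 1.39e-06). Fibroblast markers summed to 5.48 to 6.24 against 23.8 to 28.1 CPM, most of it LUM, with 6 of 7 under 0.5 CPM. The part of these differences in the enzyme results was not tested, and in bulk RNA fewer cells of a type cannot be told apart from less RNA per cell.

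Most enzyme genes stayed close to their control level, and the differences that passed the test were small. Of the 71 protein-coding members with enough reads to be tested, 14 rose, 6 fell and 51 did not pass (edgeR quasi-likelihood test, Benjamini-Hochberg adjusted p under 0.05 over all 17935 tested genes). That is 28.2% called, beside 24.2% of all tested genes (12.2% higher and 12% lower) and 28.9% of tested protein-coding genes, so the share of called enzymes is near the background. No called enzyme differed by 1.5-fold or more, while 21.9% of all called genes did. Log2 fold changes ran from -0.40 to 0.65, with a median of -0.01 beside 0.01 over all tested genes. The median size of the change without its sign was 0.10, against 0.14 over all tested genes. The enzymes were well covered, at a median level of 33.0 CPM against 11.5 CPM for all tested genes. The comparisons of fold size above therefore set protein-coding enzymes beside genes of unlike level and type, noncoding genes included.

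The split between higher and lower calls depended on scaling and on single libraries. With library sizes alone and no further scaling it was 20 higher and 2 lower, and with DESeq2 it was 10 and 6. The higher count was 7 without shATXN7L3 replicate 3 and 8 without shcontrol replicate 2. The lower count was 1 without shATXN7L3 replicate 1 and 3 without shATXN7L3 replicate 2, and 9 without shcontrol replicate 1. Over all tested genes the higher count was 2182 with all libraries, 1543 without shATXN7L3 replicate 3 and 1698 without shcontrol replicate 2. The lower count over all tested genes was 2150 with all libraries, and 1572 and 1624 without shATXN7L3 replicates 1 and 2. Of the 20 called genes, 7 were called under all 13 alternative settings. These were the risers HDAC6, HDAC9, SIRT5, KDM1B, KDM3A and PRMT2, and SETD1B, the 1 that fell.

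**Figure D1:**
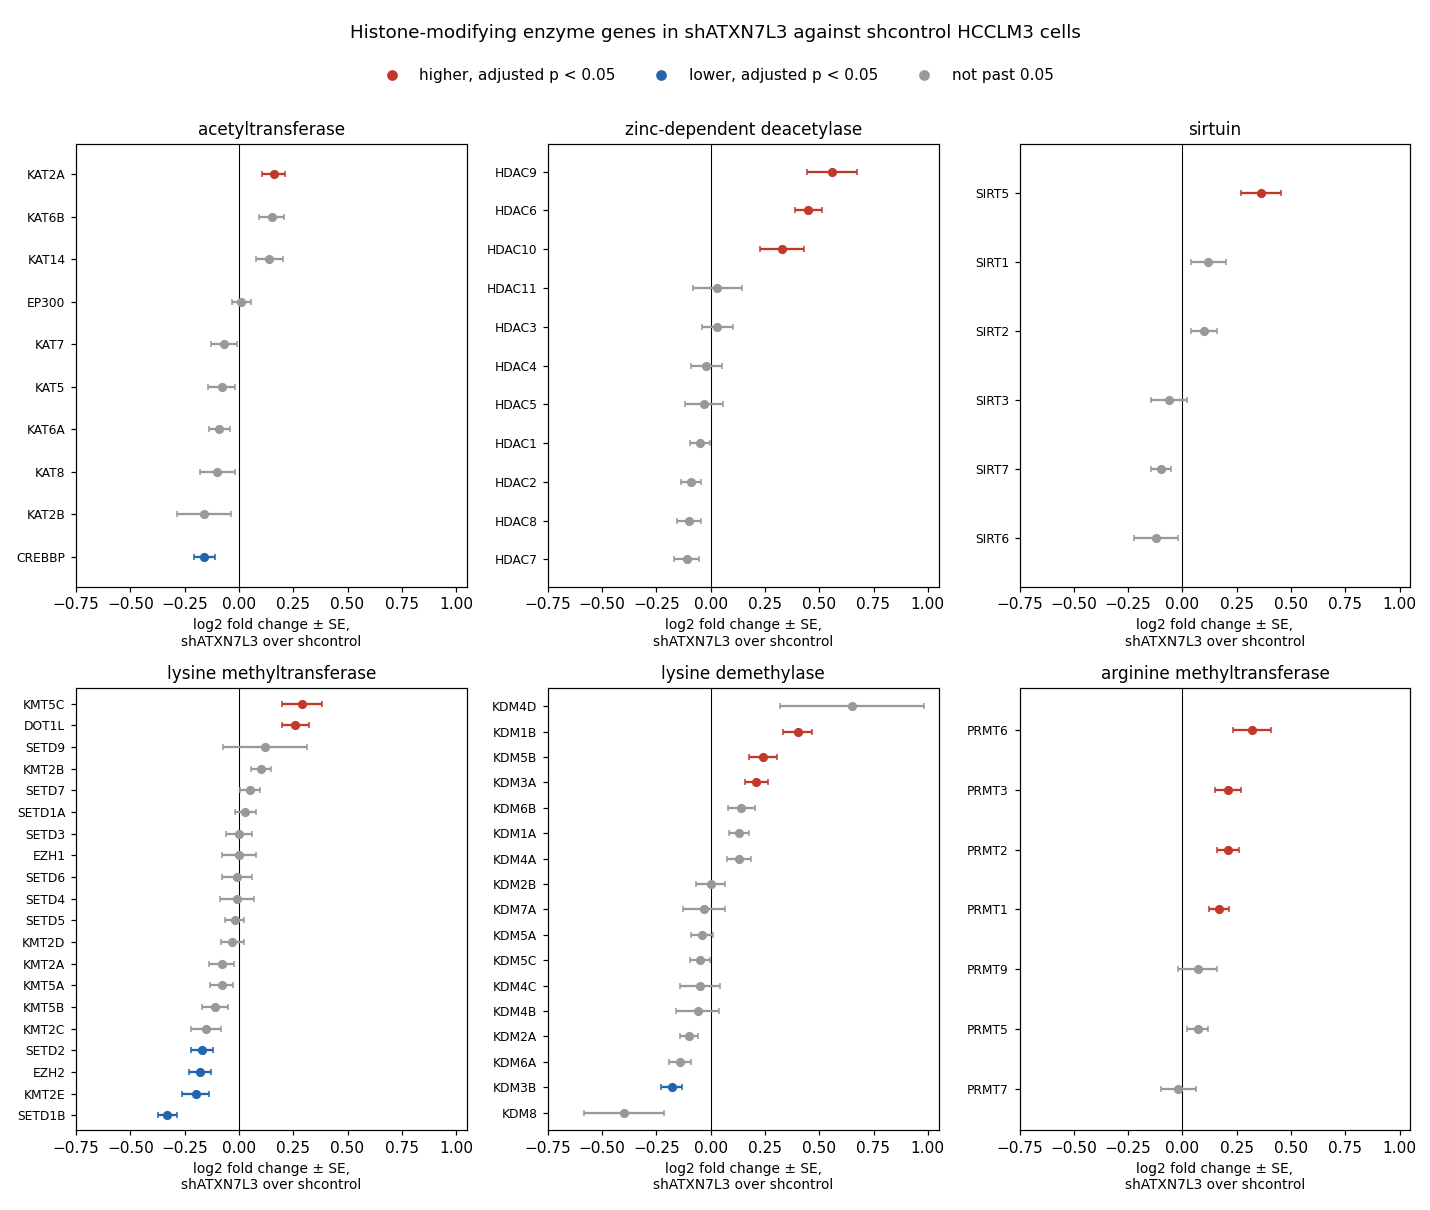
Log2 fold change of shATXN7L3 over shcontrol (horizontal axis, bars are SE) for the 71 tested protein-coding enzyme genes in 6 panels by class. Red points are higher and blue points lower past the adjusted threshold, and the called values lie between -0.33 for SETD1B and 0.56 for HDAC9. Grey points did not pass, among them KDM4D and KDM8, whose bars are the widest of the demethylases.

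Over tested protein-coding genes, 14.5% were called higher and 14.4% lower. No such share was computed for other groups of genes as small as these classes. By class, 4 of 7 tested arginine methyltransferases rose and 0 fell, with a median log2 fold change of 0.17. CARM1, an enzyme of this kind whose symbol the name rule does not match, is not counted and did not pass (0.04 ± 0.065). Among zinc-dependent deacetylases 3 of 11 rose and 0 fell (median -0.02), and among sirtuins 1 of 6 rose and 0 fell (median 0.02). Lysine demethylases had 3 higher and 1 lower of 17 (median -0.03), lysine methyltransferases 2 higher and 4 lower of 20 (median -0.02), and acetyltransferases 1 higher and 1 lower of 10 (median -0.08). With library sizes alone, which shifted the median of all tested genes by 0.04, the medians of the zinc-dependent deacetylases, lysine methyltransferases and demethylases were 0.023, 0.028 and 0.009. Groups did not overlap in 33 of the 71 genes, beside 6861 of all 17935 tested genes (38.3%). The latter include noncoding genes and genes of lower level. The share over protein-coding genes alone was not computed, so these counts have no like background.

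Levels were also summed over each class per kilobase of exon, so that long genes do not dominate. The arginine methyltransferases reached 59.1, 62.7 and 61.5 CPM per kb in shATXN7L3, against 54.6, 56.1 and 54.8 CPM per kb in shcontrol, a mean 10.7% higher with no overlap between the groups. The lysine methyltransferases summed to 151, 147 and 154 CPM per kb in shATXN7L3, against 150, 160 and 166 CPM per kb in shcontrol, with overlap at the lowest control library. Mean sums in shATXN7L3 stood 0.0704% above those in shcontrol for acetyltransferases and 0.386% above for demethylases. They stood 1.55% below for zinc-dependent deacetylases and 1.69% below for sirtuins. Such sums were not computed for groups of other genes.

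**Figure D2:**
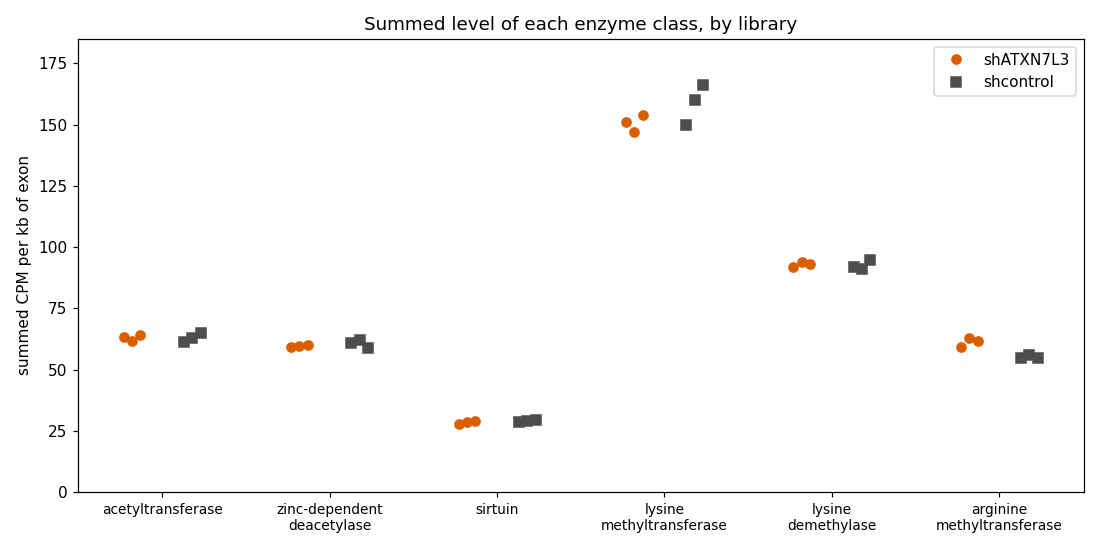
Summed level of each enzyme class in CPM per kb of exon (vertical axis, from 0), 1 point per library, shATXN7L3 as circles left of shcontrol as squares. The arginine methyltransferase points are apart, at 59.1 to 62.7 against 54.6 to 56.1, while the lysine methyltransferase sums of shcontrol spread from 150 to 166.

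The arginine methyltransferases put methyl groups on arginine in histones and in many RNA-binding proteins. PRMT1, which makes most of the asymmetric dimethylarginine of mammalian cells, was the most abundant of them per length. It lies on chromosome 19 from 49675786 to 49689029 (GRCh38, as are all gene positions here). PRMT1 stood at 111, 122 and 115 CPM in shATXN7L3, against 104, 102 and 104 CPM in shcontrol (log2 fold change 0.17 ± 0.046, edgeR adjusted p = 0.0122). PRMT2, known as a coactivator of nuclear receptors (chromosome 21, 46635167 to 46665124), stood at 39.0, 40.0 and 38.0 CPM in shATXN7L3, against 33.3, 34.5 and 33.4 CPM in shcontrol (0.21 ± 0.052, edgeR adjusted p = 0.00552). Both were higher in each knockdown library than in any control library, and PRMT1 spread more among the knockdown libraries than among the controls.

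PRMT3, a cytosolic enzyme that methylates the ribosomal protein RPS2 (chromosome 11, 20387530 to 20509294), reached 41.0, 41.6 and 43.5 CPM in shATXN7L3, against 34.0, 39.7 and 35.4 CPM in shcontrol (0.21 ± 0.060, edgeR adjusted p = 0.0140). PRMT6, which methylates H3 at arginine 2 (chromosome 1, 107056679 to 107059294), reached 9.38, 9.38 and 9.83 CPM in shATXN7L3, against 7.87, 7.13 and 7.91 CPM in shcontrol (0.32 ± 0.089, edgeR adjusted p = 0.0123). The groups were apart for both, with a narrow gap for PRMT3 because of shcontrol replicate 2. PRMT5, the main symmetric arginine methyltransferase and second in level per length, averaged 58.9 ± 1.57 CPM in shATXN7L3 and 56.2 ± 1.72 CPM in shcontrol (SD, n = 3 each; log2 fold change 0.07 ± 0.049, edgeR adjusted p = 0.351). PRMT7 and PRMT9 did not pass either (-0.02 and 0.07). CARM1, an arginine methyltransferase whose symbol the name rule does not match, averaged 30.8 ± 2.21 CPM in shATXN7L3 and 30.0 ± 2.10 CPM in shcontrol and did not pass (0.04 ± 0.065, edgeR adjusted p = 0.743). PRMT8, an enzyme of brain in mammals, had 1 read in all libraries together.

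Some calls in this class ended when a library was left out, and counts over all genes moved too. Leaving out a library gave 1543 to 2224 higher and 1547 to 2257 lower genes, beside 2182 and 2150 with all libraries. The log2 fold changes then ran from 0.130 to 0.198 for PRMT1 and 0.192 to 0.230 for PRMT2. They ran from 0.163 to 0.277 for PRMT3 and 0.273 to 0.340 for PRMT6. PRMT1 lost its call without shATXN7L3 replicate 2 (adjusted p = 0.0978) or shcontrol replicate 2 (0.0528), PRMT3 without shATXN7L3 replicate 3 (0.0809), and PRMT6 without shATXN7L3 replicate 3 (0.0552), without shcontrol replicate 2 (0.0605) and with DESeq2 (0.0728). PRMT2 kept its call in all 13 alternatives.

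The promoters of the 4 arginine methyltransferases that rose are shown because these genes moved in the same direction. Each window runs from 250 bases before to 50 bases after a RefSeq gene start (GRCh38.p14, read 5′ to 3′ on the plus strand, on which all 4 genes lie). Capitals mark the strings GGGCGG, the core of a GC box, and CCAAT, on either strand (CCGCCC and ATTGG on the other). The windows are chr19:49677021-49677320 for PRMT1, chr21:46635424-46635723 for PRMT2, chr11:20387466-20387765 for PRMT3 and chr1:107056424-107056723 for PRMT6.
PRMT1: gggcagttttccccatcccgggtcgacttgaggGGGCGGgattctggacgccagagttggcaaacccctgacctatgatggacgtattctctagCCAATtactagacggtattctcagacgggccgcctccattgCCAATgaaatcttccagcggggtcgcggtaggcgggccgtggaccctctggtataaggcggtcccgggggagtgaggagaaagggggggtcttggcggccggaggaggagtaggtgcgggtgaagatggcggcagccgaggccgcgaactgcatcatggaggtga
PRMT2: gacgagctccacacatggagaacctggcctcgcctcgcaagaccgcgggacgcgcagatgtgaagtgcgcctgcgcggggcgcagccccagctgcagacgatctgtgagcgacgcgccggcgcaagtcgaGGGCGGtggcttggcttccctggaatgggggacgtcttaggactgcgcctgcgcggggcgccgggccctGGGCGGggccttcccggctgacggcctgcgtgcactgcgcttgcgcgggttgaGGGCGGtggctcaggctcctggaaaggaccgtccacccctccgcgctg
PRMT3: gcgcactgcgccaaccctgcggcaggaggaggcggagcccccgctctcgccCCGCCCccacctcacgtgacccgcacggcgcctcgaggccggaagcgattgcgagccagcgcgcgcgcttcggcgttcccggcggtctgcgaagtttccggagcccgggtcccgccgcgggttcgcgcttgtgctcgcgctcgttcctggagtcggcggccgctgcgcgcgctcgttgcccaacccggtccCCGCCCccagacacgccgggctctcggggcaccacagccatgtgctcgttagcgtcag
PRMT6: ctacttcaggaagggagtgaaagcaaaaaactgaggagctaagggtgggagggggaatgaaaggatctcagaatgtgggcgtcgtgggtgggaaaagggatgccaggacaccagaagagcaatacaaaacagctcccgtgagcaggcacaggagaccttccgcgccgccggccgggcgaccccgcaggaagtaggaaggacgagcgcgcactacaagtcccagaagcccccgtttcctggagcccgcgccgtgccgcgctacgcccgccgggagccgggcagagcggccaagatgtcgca
GGGCGG occurred 1 time in the PRMT1 window, 3 times in PRMT2, 2 times in PRMT3 and 0 times in PRMT6, and CCAAT 2 times in PRMT1 and 0 times in the others. The 4 windows thus share neither string. Their GC contents were 62.0%, 72.0%, 75.0% and 63.0%, beside medians of 66.5% over the member promoters and 58.3% over all promoters.

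Promoters of 70 members were in the RefSeq table, 1 window per gene. Their median GC content was 66.5% with 29.5 CpG dinucleotides, against 58.3% and 14 over 27305 promoters in all. GGGCGG was in 68.6% of the member windows and 44.6% of all windows, CCAAT in 35.7% of each, CCGGAA (the core of ETS factor sites) in 25.7% and 17.6%, and CACGTG (an E-box) in 11.4% and 7.43%. TATAAA was in 0 of the 70 member windows and in 12% of all windows. All strings were searched on both strands. Among members that rose, 9 of 13 windows held GGGCGG and 6 of 13 CCAAT, and among members that fell 5 of 5 and 2 of 5. No window was available for DOT1L, which rose, or for SETD1B, which fell, so these counts leave both out. The 27305 windows were not matched to the members by GC content, gene type or level, so these shares compare unlike sets. These matches describe letters in the window and were not tested.

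Deacetylases remove acetyl groups from histones and other proteins. HDAC1 and HDAC2, the catalytic pair of the NuRD, SIN3 and CoREST complexes, were the most abundant of the class per length, at 24.9 ± 0.434 and 12.8 ± 0.394 CPM per kb in shATXN7L3 against 25.7 ± 1.04 and 13.6 ± 0.647 CPM per kb in shcontrol (SD, n = 3 each). Neither passed the test (log2 fold changes -0.05 ± 0.046 and -0.09 ± 0.046, edgeR adjusted p = 0.517 and 0.197), although HDAC2 did without shcontrol replicate 3 (-0.13, edgeR adjusted p = 0.0259). The 3 deacetylases that rose are all class II enzymes of low to moderate level. HDAC6, a cytoplasmic deacetylase of tubulin that binds ubiquitin (chromosome X, 48801377 to 48824982), stood at 30.1, 32.0 and 30.9 CPM in shATXN7L3, against 20.9, 24.3 and 23.0 CPM in shcontrol. All knockdown libraries lay above all controls (log2 fold change 0.45 ± 0.063, edgeR adjusted p = 2.72e-05), and the estimate stayed between 0.39 and 0.50 in the alternatives.

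HDAC9, a class IIa enzyme that represses MEF2 factors (chromosome 7, 18086949 to 19002416), had 144, 153 and 171 reads in shATXN7L3, against 93, 108 and 98 reads in shcontrol. At 6.19, 6.35 and 7.16 CPM in shATXN7L3, against 4.13, 4.97 and 4.31 CPM in shcontrol, it showed the largest fold of the called enzymes (log2 fold change 0.56 ± 0.11, edgeR adjusted p = 0.00129, or 1.47-fold). HDAC10, which deacetylates polyamines (chromosome 22, 50245183 to 50251405), stood at 7.91, 7.88 and 9.04 CPM in shATXN7L3, against 6.67, 5.94 and 7.12 CPM in shcontrol (0.33 ± 0.10, edgeR adjusted p = 0.0225). Its value is uncertain, since 55.8% of its exon bases are also exon of MAPK12 on the same strand, and MAPK12 rose too, to 15.9 ± 0.786 CPM in shATXN7L3 against 13.1 ± 0.644 CPM in shcontrol (0.28 ± 0.073, edgeR adjusted p = 0.00781). HDAC10 also lost its call without shATXN7L3 replicate 3 (adjusted p = 0.125) or shcontrol replicate 2 (0.109) and with DESeq2 (0.0937).

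The other class II and class I genes were close to the control level. HDAC3, the catalytic subunit of the NCoR complex, and HDAC11, the class IV member, both had a log2 fold change of 0.03, HDAC4 had -0.02, HDAC5 -0.03, HDAC8, which acts on cohesin, -0.10, and HDAC7 -0.11.

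Among the sirtuins, SIRT5, a mitochondrial enzyme that removes succinyl groups (chromosome 6, 13574529 to 13615158), rose. It stood at 10.3, 10.5 and 10.5 CPM in shATXN7L3, against 7.60, 9.25 and 7.65 CPM in shcontrol (log2 fold change 0.36 ± 0.092, edgeR adjusted p = 0.00700). The knockdown libraries were close together and all above the controls, of which replicate 2 was the highest. SIRT7, a nucleolar sirtuin, held 49.9% of the summed sirtuin level per kb in shcontrol. It stood at 80.9, 81.7 and 86.2 CPM in shATXN7L3, against 87.1, 88.2 and 90.8 CPM in shcontrol, apart but short of the threshold (-0.10 ± 0.046, edgeR adjusted p = 0.139). SIRT1, SIRT2, SIRT3 and SIRT6 had log2 fold changes of 0.12, 0.10, -0.06 and -0.12 and did not pass. SIRT4 was too low for the test, with 5, 6 and 8 reads in shATXN7L3 and 11, 9 and 9 reads in shcontrol.

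**Figure D3:**
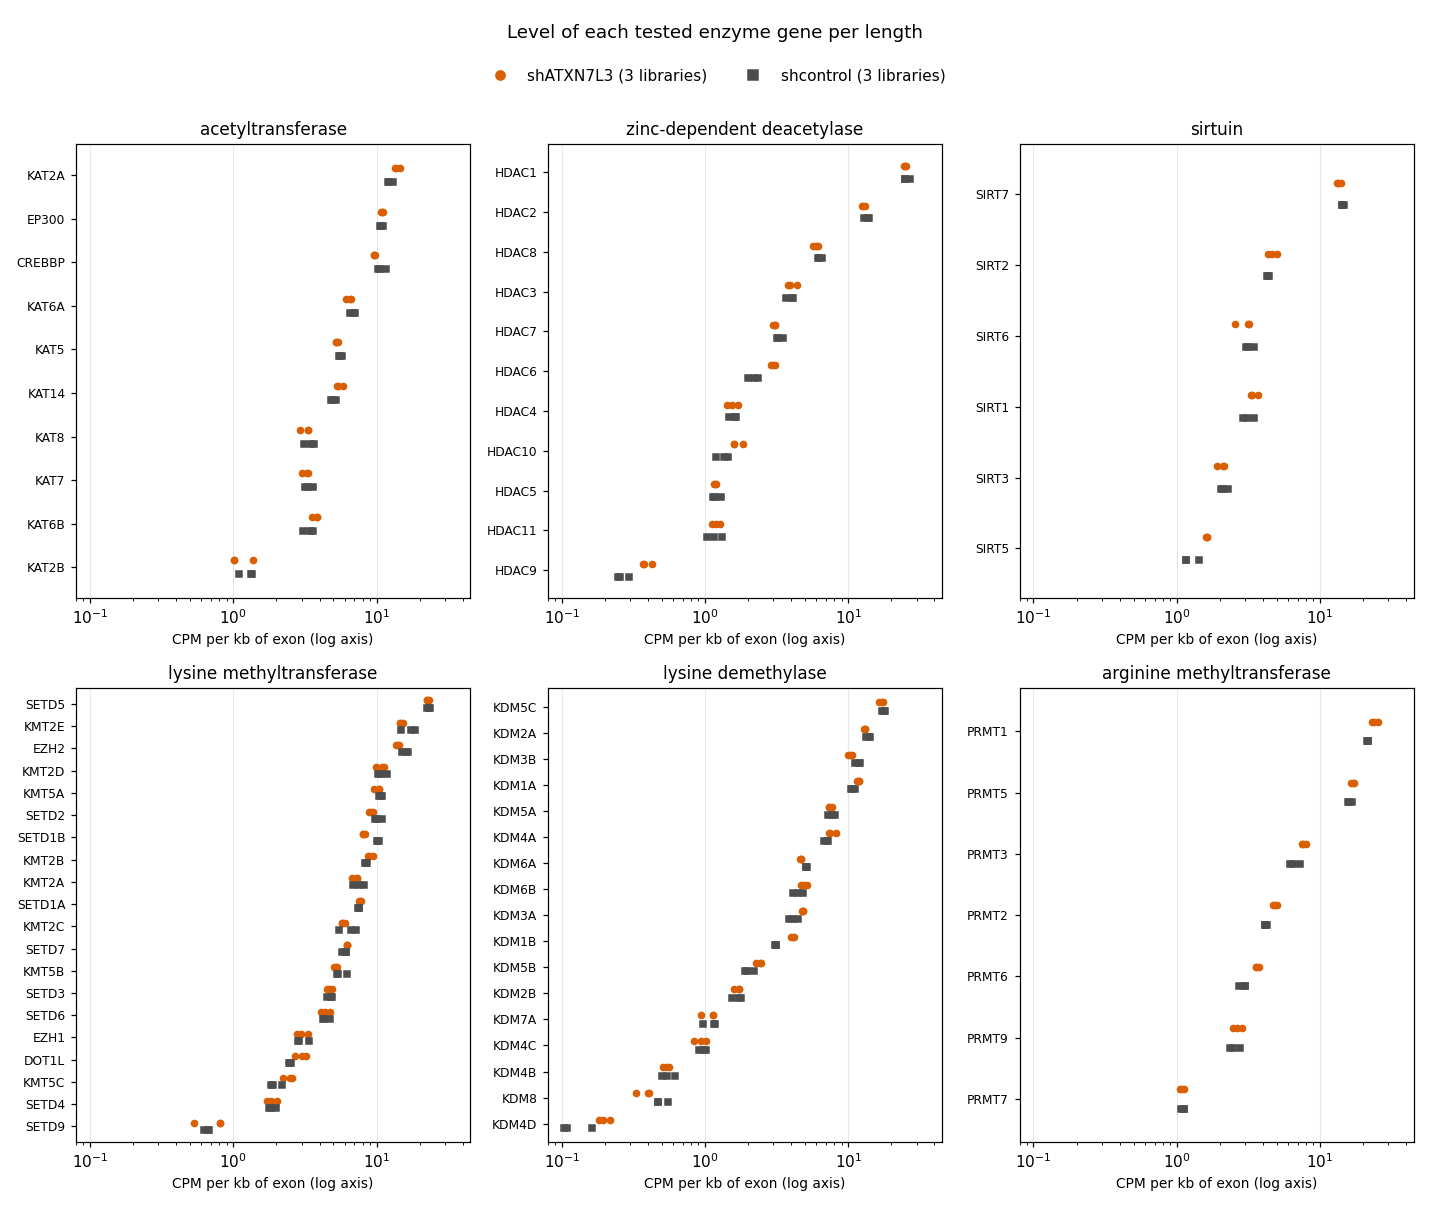
Level of each tested enzyme gene in CPM per kb of exon (horizontal log axis), 3 shATXN7L3 libraries as circles above 3 shcontrol libraries as squares, genes sorted by their control level within each class. HDAC1, SETD5, PRMT1, KDM5C, SIRT7 and KAT2A lead their classes in shcontrol, at 25.7, 23.1, 21.6, 17.7, 14.4 and 12.4 CPM per kb.

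Among the acetyltransferases, KAT2A, the GCN5 enzyme of SAGA and ATAC and the most abundant of the class per length (chromosome 17, 42113108 to 42121358), stood at 51.4, 50.9 and 55.1 CPM in shATXN7L3, against 45.6, 46.3 and 48.8 CPM in shcontrol. The increase was 0.16 ± 0.052 in log2 units (edgeR adjusted p = 0.0286). The call ended with DESeq2 (adjusted p = 0.0898), without shATXN7L3 replicate 1 (0.0585) or 3 (0.169) and without shcontrol replicate 2 (0.0931). Exon bases of KAT2A (10.7%) overlap CTD-2132N18.3 on the same strand, which did not pass the test (0.03 ± 0.049). CREBBP, the partner of EP300 in acetylating H3K27 at enhancers (chromosome 16, 3725054 to 3880726), stood at 150, 148 and 152 CPM in shATXN7L3, against 159, 164 and 180 CPM in shcontrol. It fell (log2 fold change -0.16 ± 0.048, edgeR adjusted p = 0.0194), with shcontrol replicate 3 well above the other controls. The call ended without shcontrol replicate 3 (0.0578), without shATXN7L3 replicate 1, 2 or 3 (0.0783, 0.0859 and 0.0604) and with library sizes alone (0.104). EP300 averaged 136 ± 2.03 CPM in shATXN7L3 and 135 ± 3.80 CPM in shcontrol (0.01 ± 0.043, edgeR adjusted p = 0.862).

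The remaining acetyltransferases did not pass. KAT2B, the paralog of KAT2A, was low at 7.74, 5.68 and 5.73 CPM in shATXN7L3, against 6.18, 7.50 and 7.69 CPM in shcontrol, with the groups overlapping. The MYST family enzymes KAT5 (Tip60), KAT7 (HBO1), KAT8 (MOF) and KAT6A had log2 fold changes of -0.08, -0.07, -0.10 and -0.09, and KAT6B 0.15. KAT6B was called without shcontrol replicate 3 (0.20, edgeR adjusted p = 0.0147) and with library sizes alone (0.0348). KAT14, a subunit of ATAC, had 0.14.

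The lysine methyltransferases held the decrease with the smallest p of the enzymes. SETD1B, a catalytic subunit of the SET1/COMPASS complex that methylates H3K4 (chromosome 12, 121804180 to 121832584), stood at 66.7, 66.9 and 69.1 CPM in shATXN7L3, against 84.4, 86.2 and 83.6 CPM in shcontrol. Both groups were tight and far apart, and the level in shATXN7L3 was 0.797 of that in shcontrol (0.749 to 0.849 at ± 2 SE; log2 fold change -0.33 ± 0.045, edgeR adjusted p = 2.06e-05). Its paralog SETD1A stood at 53.0, 52.4 and 53.9 CPM in shATXN7L3, against 51.6, 52.2 and 51.7 CPM in shcontrol (0.03 ± 0.047, edgeR adjusted p = 0.651).

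Of the KMT2 proteins, a family of H3K4 methyltransferases, KMT2A, KMT2C and KMT2E spread more widely among the control libraries than among the shATXN7L3 libraries. KMT2E, whose SET domain is thought to be inactive on histones (chromosome 7, 105014179 to 105114361), stood at 134, 134 and 140 CPM in shATXN7L3, against 137, 161 and 171 CPM in shcontrol. It was called lower (-0.20 ± 0.060, edgeR adjusted p = 0.0190) although shcontrol replicate 1 lay within the shATXN7L3 range, the 1 called enzyme with overlapping groups. KMT2C stood at 121, 115 and 115 CPM in shATXN7L3, against 111, 134 and 146 CPM in shcontrol, and did not pass (-0.15 ± 0.069, edgeR adjusted p = 0.113). It passed with no filter on low counts (edgeR adjusted p = 0.0188) and without shcontrol replicate 1 (-0.26, edgeR adjusted p = 9e-05), as in that last setting did KMT2A (-0.14, edgeR adjusted p = 0.0271). With all libraries KMT2A, KMT2B and KMT2D had log2 fold changes of -0.08, 0.10 and -0.03, and KMT2B was called with library sizes alone (0.14, edgeR adjusted p = 0.0350).

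This spread was common among long genes. Of the 24 tested members with at least 10000 exon bases, 17 (70.8%) had their lowest control value in replicate 1 and their highest in replicate 3, as had 33 of all 71 (46.5%). Over all tested genes the share was 20.6%, and 41.2% of those with at least 10000 exon bases. Among the called decreases, CREBBP, SETD2, KDM3B, EZH2 and KMT2E had this order of controls, and SETD1B did not. The order is not confined to long genes, since EZH2 has 4522 exon bases. Among the called increases, KAT2A, KDM3A and KDM5B had it and the others did not. Its part in the calls was not tested beyond leaving the libraries out. KMT2E lost its call without shATXN7L3 replicate 1 or 2 (adjusted p = 0.0822 and 0.0859), without shcontrol replicate 2 or 3 (0.0857 and 0.0549) and with library sizes alone (0.0790).

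EZH2, the catalytic subunit of PRC2 that methylates H3K27 (chromosome 7, 148807383 to 148884321), stood at 63.7, 61.5 and 65.2 CPM in shATXN7L3, against 67.7, 72.8 and 74.5 CPM in shcontrol. It fell (log2 fold change -0.18 ± 0.050, edgeR adjusted p = 0.0139). SETD2, which trimethylates H3K36 in transcribed genes (chromosome 3, 47016429 to 47163967), stood at 89.1, 94.3 and 91.1 CPM in shATXN7L3, against 98.1, 101 and 109 CPM in shcontrol (-0.17 ± 0.049, edgeR adjusted p = 0.0161). The groups were apart in both genes, by less than the spread of the controls. Both calls ended with library sizes alone (adjusted p = 0.0739 for EZH2 and 0.0845 for SETD2). EZH2 also lost its call without shATXN7L3 replicate 1 (0.0527) or 2 (0.0864) or shcontrol replicate 2 (0.0573), and SETD2 without shATXN7L3 replicate 1 (0.0981) or 3 (0.0722). EZH1, the less abundant paralog of EZH2, averaged 21.2 ± 2.06 CPM in shATXN7L3 and 21.2 ± 2.01 CPM in shcontrol.

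DOT1L, the H3K79 methyltransferase (chromosome 19, 2164149 to 2232578), stood at 34.3, 30.5 and 36.3 CPM in shATXN7L3, against 27.6, 28.7 and 28.2 CPM in shcontrol (0.26 ± 0.064, edgeR adjusted p = 0.00537). KMT5C, which makes trimethylated H4K20 (chromosome 19, 55339853 to 55348120), stood at 12.3, 10.5 and 11.8 CPM in shATXN7L3, against 8.98, 8.70 and 10.5 CPM in shcontrol (0.29 ± 0.092, edgeR adjusted p = 0.0245). Both rose, DOT1L with the wider spread in shATXN7L3 and KMT5C with its groups nearly touching. Exon bases of DOT1L (11.5%) overlap PLEKHJ1 and AC004490.1 on the opposite strand, and neither passed the test (0.02 ± 0.075 and 0.45 ± 0.20). With no stated strand setting, reads of this overlap cannot be assigned. DOT1L lost its call without shATXN7L3 replicate 3 (0.0562). KMT5C lost it without shATXN7L3 replicate 1 (0.112) or 3 (0.0858), without shcontrol replicate 1 (0.0568) or 2 (0.110) and with DESeq2 (0.0883). The other H4K20 enzymes did not pass, with KMT5B at -0.11 ± 0.060 (called without shcontrol replicate 1, edgeR adjusted p = 0.0397) and KMT5A at -0.08 ± 0.052.

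SETD proteins with substrates outside histones or with unsettled activity were near the control level. SETD5, the most abundant member of the class per length, averaged 246 ± 5.36 CPM in shATXN7L3 and 250 ± 5.35 CPM in shcontrol (-0.02 ± 0.042, edgeR adjusted p = 0.748). SETD7, which methylates H3K4 and non-histone proteins, averaged 86.6 ± 0.372 and 83.8 ± 3.64 CPM (0.05 ± 0.047). SETD3, the actin histidine methyltransferase, stood at 24.4 ± 1.01 and 24.5 ± 1.07 CPM, and SETD6, which methylates RELA, at 22.3 ± 1.66 and 22.5 ± 1.39 CPM in shATXN7L3 and shcontrol.

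**Figure D4:**
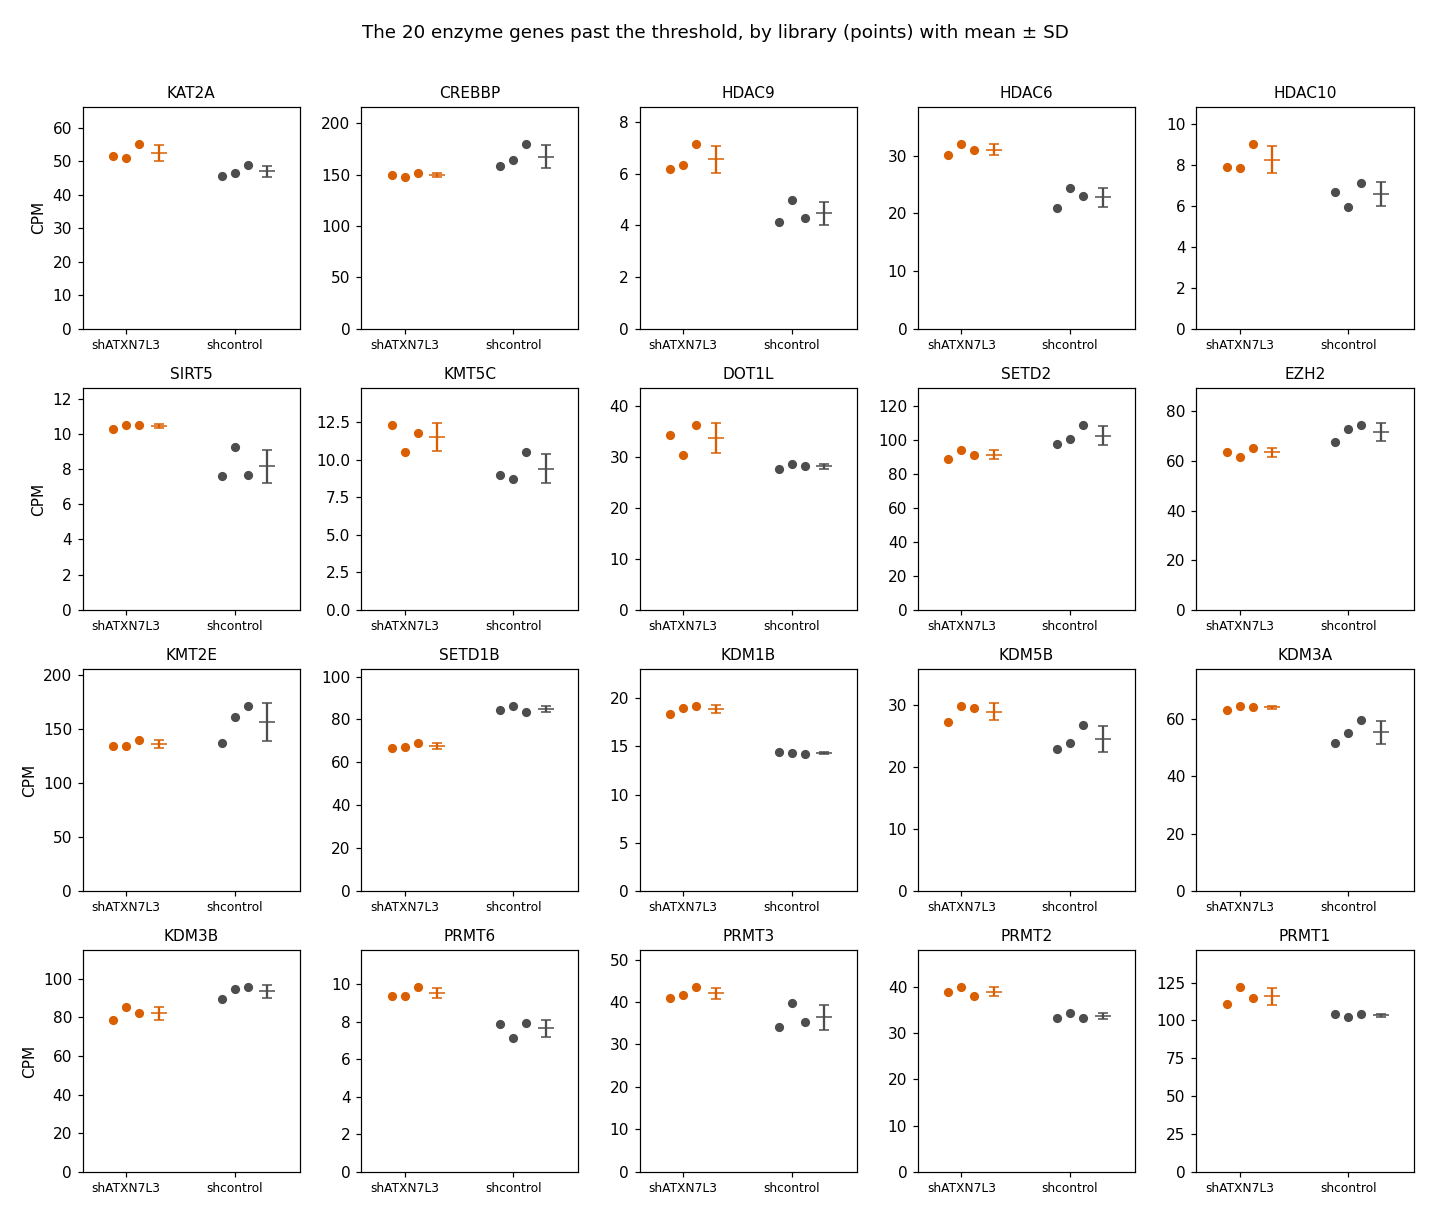
CPM (vertical axis from 0, separate for each gene) of the 20 enzyme genes past the threshold, 1 point per library, with mean ± SD beside the points, shATXN7L3 left of shcontrol. The points of the groups are apart in 19 of the 20 genes, and in KMT2E the lowest control (137 CPM) lies among the shATXN7L3 points (134 to 140 CPM).

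The lysine demethylases use flavin (KDM1) or iron and oxoglutarate (the JmjC enzymes KDM2 to KDM8). KDM1B, the LSD2 enzyme that removes methyl groups from H3K4 (chromosome 6, 18155329 to 18223853), stood at 18.4, 19.0 and 19.2 CPM in shATXN7L3, against 14.4, 14.3 and 14.2 CPM in shcontrol. The groups were far apart beside their spread (log2 fold change 0.40 ± 0.066, edgeR adjusted p = 1.33e-04, or 1.32-fold). KDM1A, the LSD1 enzyme of the CoREST complex, reached 63.9, 62.7 and 64.7 CPM in shATXN7L3, against 57.6, 57.3 and 60.5 CPM in shcontrol. Its groups were apart too, but it did not pass (0.13 ± 0.047, edgeR adjusted p = 0.0612), except without shcontrol replicate 3 (0.0325) and with library sizes alone (0.0186).

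KDM3A and KDM3B, both demethylases of mono- and dimethylated H3K9, moved in opposite directions. KDM3A (chromosome 2, 86440647 to 86492716) stood at 63.4, 64.6 and 64.4 CPM in shATXN7L3, against 51.6, 55.3 and 59.6 CPM in shcontrol (0.21 ± 0.053, edgeR adjusted p = 0.00704). KDM3B (chromosome 5, 138352596 to 138437028) stood at 78.7, 85.5 and 82.1 CPM in shATXN7L3, against 89.6, 94.9 and 95.6 CPM in shcontrol (-0.18 ± 0.048, edgeR adjusted p = 0.00766). Both genes had separate groups, and KDM3B lost its call without shATXN7L3 replicate 1 (0.0729).

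The promoters of this pair are shown to compare genes that act on the same residue and moved apart, marked as above, at chr2:86441121-86441420 for KDM3A (the first listed start) and chr5:138352435-138352734 for KDM3B, both on the plus strand (GRCh38.p14).
KDM3A: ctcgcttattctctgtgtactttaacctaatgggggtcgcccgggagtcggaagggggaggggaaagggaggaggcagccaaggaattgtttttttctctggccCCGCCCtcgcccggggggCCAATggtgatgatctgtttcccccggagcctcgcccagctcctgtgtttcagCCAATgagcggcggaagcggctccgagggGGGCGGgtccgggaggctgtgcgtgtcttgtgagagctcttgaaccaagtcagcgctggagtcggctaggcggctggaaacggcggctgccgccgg
KDM3B: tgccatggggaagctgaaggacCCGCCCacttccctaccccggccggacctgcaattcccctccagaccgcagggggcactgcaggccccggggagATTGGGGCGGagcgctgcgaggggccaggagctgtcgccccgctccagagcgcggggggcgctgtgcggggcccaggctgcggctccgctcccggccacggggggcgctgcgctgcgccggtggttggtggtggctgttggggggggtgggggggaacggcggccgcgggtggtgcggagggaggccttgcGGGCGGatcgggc
Both windows hold GGGCGG, 2 times in KDM3A and 3 times in KDM3B, and CCAAT, 2 times in KDM3A and 1 time in KDM3B, where ATTGG and GGGCGG share bases. The KDM3B window has the higher GC content, at 77.0% against 64.0% for KDM3A.

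KDM5B, a demethylase of trimethylated H3K4 (chromosome 1, 202724491 to 202809470), reached 27.3, 29.8 and 29.5 CPM in shATXN7L3, against 22.9, 23.8 and 26.8 CPM in shcontrol. It rose with a narrow gap between the groups (0.24 ± 0.065, edgeR adjusted p = 0.0117), and the call ended without shATXN7L3 replicate 2 (0.0623) or 3 (0.0596) or shcontrol replicate 2 (0.0546). The more abundant enzymes of the same residue, KDM5A and KDM5C, had log2 fold changes of -0.04 ± 0.049 and -0.05 ± 0.045. The H3K27 demethylases KDM6A and KDM6B stood at -0.14 ± 0.051 and 0.14 ± 0.062, neither past the threshold (edgeR adjusted p = 0.0591 and 0.122). KDM6A was nevertheless apart in all libraries, at 32.7, 33.5 and 33.2 CPM in shATXN7L3, against 36.3, 36.4 and 36.7 CPM in shcontrol, and was called under 2 alternatives, with DESeq2 size factors (0.0499) and with the stricter filter (0.0495). KDM6B was called with library sizes alone (0.0399) and without shcontrol replicate 1 (0.0180).

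For the H3K36 demethylases, log2 fold changes were -0.10 ± 0.043 in KDM2A (edgeR adjusted p = 0.113) and 0.00 ± 0.066 in KDM2B. Of the KDM4 enzymes, which act on H3K9 and H3K36, KDM4B had -0.06, KDM4C -0.05 and KDM4A 0.13, and KDM7A had -0.03. KDM4A was called with library sizes alone (0.17, edgeR adjusted p = 0.0355). The widest estimates belong to the least abundant genes. KDM4D had 15, 14 and 13 reads in shATXN7L3 and 7, 7 and 11 reads in shcontrol (0.65 ± 0.33, edgeR adjusted p = 0.177), and KDM8 31, 39 and 39 reads against 43, 41 and 51 reads (-0.40 ± 0.18, edgeR adjusted p = 0.133).

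None of the tested noncoding genes and pseudogenes with matching names passed the test. KDM4A-AS1, KMT2E-AS1, PRMT5-AS1 and the KMT5A pseudogene SETD8P1 had log2 fold changes of -0.06, -0.05, 0.03 and 0.03, and KDM5C-IT1 and PRMT1P1 were too low for the test. The antisense genes share 24.0%, 19.4% and 35.2% of their exon bases with genes on the opposite strand, KDM4A, KMT2E and PRMT5 among them. Without a stated strand setting, reads of such partners cannot be told apart.

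Ratios within pairs of related enzymes do not depend on how libraries were scaled. In 11 of 19 pairs the ratio of per-length levels did not overlap between the groups, and in the other 8 it did. No such share was computed for pairs of other genes. Every non-overlapping pair reached the smallest exact permutation p of 0.1, or 0.173 after Benjamini-Hochberg adjustment over the 19 pairs, so no pair could pass the threshold. The log2 ratio of SETD1A to SETD1B was -0.06, -0.08 and -0.09 in shATXN7L3, against -0.44, -0.45 and -0.43 in shcontrol. The per-length levels of these paralogs were thus nearly equal in shATXN7L3, whereas SETD1B stood above SETD1A in shcontrol.

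KDM3A to KDM3B differed by 0.40, with log2 ratios of -1.07, -1.16 and -1.10 in shATXN7L3, against -1.55, -1.53 and -1.43 in shcontrol. EP300 to CREBBP was 0.18, 0.17 and 0.18 in shATXN7L3, against 0.04, 0.02 and -0.06 in shcontrol, and KAT6A to KAT6B 0.78 in each shATXN7L3 library, against 1.08, 1.02 and 0.97 in shcontrol. The ratio of HDAC7 to HDAC9 differed by -0.65, that of KMT5B to KMT5C by -0.40, KDM6A to KDM6B by -0.28, KDM1A to KDM1B and KDM5A to KDM5B by -0.27 each, KMT2A to KMT2B by -0.18 and PRMT1 to PRMT5 by 0.10. Ratios overlapped for EZH1 to EZH2 (0.18), KAT2A to KAT2B (0.33), KDM4A to KDM4C (0.19), KMT2C to KMT2D (-0.11), KDM2A to KDM2B (-0.10), HDAC1 to HDAC2 (0.04), SIRT1 to SIRT2 (0.02) and HDAC4 to HDAC5 (0.00).

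**Figure D5:**
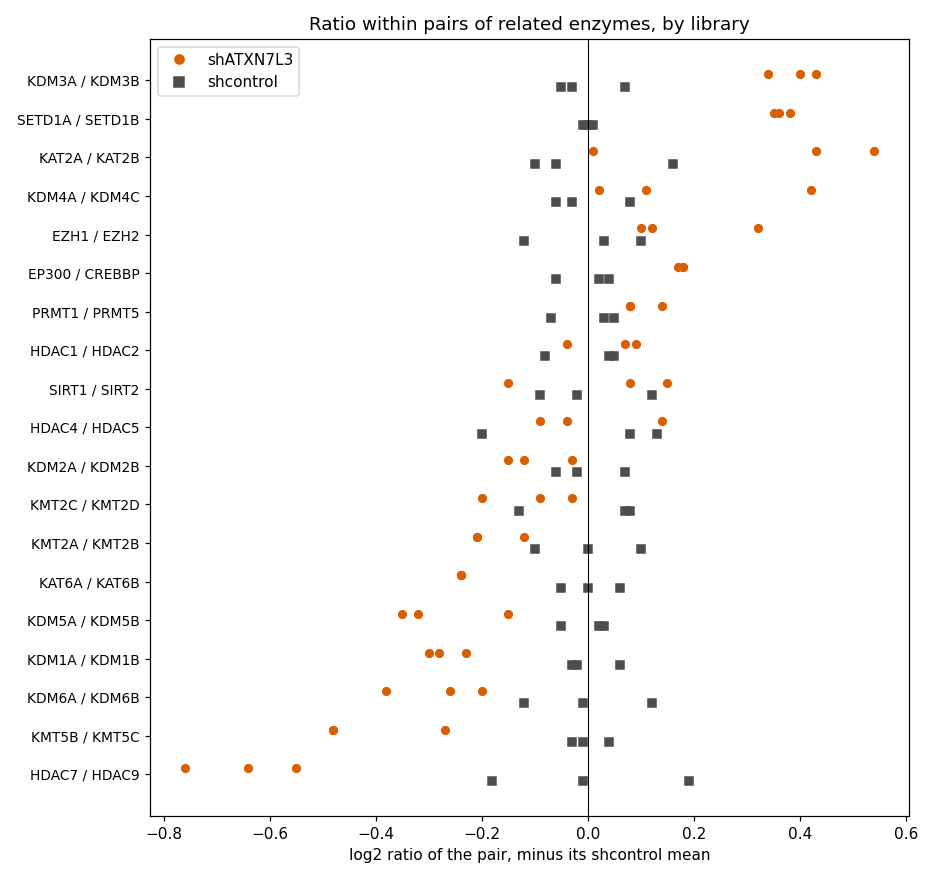
Log2 ratio of the per-length levels of 19 enzyme pairs (horizontal axis, each pair set to 0 at its shcontrol mean), 1 point per library, shATXN7L3 as circles above shcontrol as squares. KDM3A to KDM3B (0.40) and SETD1A to SETD1B (0.36) lie to the right of all controls, and HDAC7 to HDAC9 (-0.65) is farthest to the left.

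Enzymes act within complexes, so 132 genes of partners, related enzymes and readers were set beside them. Of these, 10 rose and 13 fell, or 17.4%, beside 24.2% of all tested genes and 28.9% of tested protein-coding genes. In the MYST acetyltransferase complexes 4 of 29 rose and 5 fell. MORF4L1, a reader of methylated H3K36 shared by NuA4 and SIN3 complexes, stood at 375, 397 and 385 CPM in shATXN7L3, against 479, 525 and 498 CPM in shcontrol (log2 fold change -0.38 ± 0.045, edgeR adjusted p = 3.45e-06). Its relative MORF4L2 stood at 333, 338 and 334 CPM in shATXN7L3, against 284, 286 and 272 CPM in shcontrol (0.25 ± 0.042, edgeR adjusted p = 0.000128). The groups were apart in both genes, in opposite directions, and MEAF6, a small subunit of these complexes, fell as well (-0.51 ± 0.080, edgeR adjusted p = 9.02e-05).

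In the deacetylase complexes 2 of 26 rose and 2 fell. The NuRD helicase CHD3 rose to 337 ± 3.52 CPM in shATXN7L3, against 287 ± 7.85 CPM in shcontrol (0.23 ± 0.042), TBL1XR1 of the NCoR complex rose (0.15 ± 0.046) and SUDS3 of SIN3 fell (-0.21 ± 0.047). The COMPASS core had 1 of 13 higher, MEN1 (0.15 ± 0.052), whose call ended in 9 of 13 alternatives. PRC2 had 1 of 10 lower, RBBP7 (-0.17 ± 0.048), a histone-binding protein. The TBL1XR1 call ended without shATXN7L3 replicate 1 or 3 or shcontrol replicate 2. The RBBP7 call ended without the same libraries and with library sizes alone.

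Of 18 other histone methyltransferases, the H3K9 enzyme SETDB2 rose, at 2.75, 2.82 and 2.22 CPM in shATXN7L3 against 1.47, 2.03 and 1.10 CPM in shcontrol (0.77 ± 0.20, edgeR adjusted p = 0.0088). Of 12 other acetyltransferases and coactivators 2 fell, NCOA3 (-0.22 ± 0.049) and ATF2 (-0.23 ± 0.057), and of 9 other JmjC proteins and demethylases HR rose (0.23 ± 0.064). The HR call ended with DESeq2 and without shATXN7L3 replicate 3 or shcontrol replicate 2, and that of ATF2 without shATXN7L3 replicate 2. Readers of acetyl-lysine had 1 of 17 higher, BAZ2B (0.32 ± 0.11, with overlapping groups), and 3 lower, among them TRIM24 (-0.31 ± 0.050) and ATAD2 (-0.29 ± 0.047).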

How the data were processed

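The authors deposited raw counts for each gene symbol, with 1 column per library. Per the submitters' processing notes, reads were handled with Trimmomatic 0.36, STAR 2.5.3a, featureCounts of Subread 1.5.1 and edgeR 3.12.1 on GRCh38. The sources used here give no annotation release, strand setting or rule for multi-mapped reads. Exonic lengths and coordinates came with the deposited counts, per the file headers, and gene types from GENCODE 29 by symbol.

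Genes were kept with filterByExpr (minimum count 10, minimum total 15), which left 17935. Groups were compared with edgeR 4.0.16 in R 4.3.3 (TMM factors 0.972 to 1.02, quasi-likelihood F-test on group alone), and p-values were adjusted by Benjamini-Hochberg across the 17935 genes with a threshold of 0.05. The standard error is the log2 fold change divided by the square root of F, an approximation. CPM per kb divides by exonic length. Pair ratios used log2 counts with 2 added, and two-sided exact permutation tests. Alternatives used DESeq2 1.42.0, limma 3.58.1 voom, other scalings and filters, a replicate block and each library left out. The procedure was tested on simulated data.

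The named genes are ATXN7L3, every enzyme past the threshold, the most abundant enzyme per length of each class, 19 fixed pairs, and up to 3 called genes with the smallest p of each partner list. BAZ2B, CARM1 and further enzymes without a call were named after their values were seen. The members and lists were chosen with earlier results of these data known. Exon overlap was checked for the enzymes and ATXN7L3, of which 34 enzymes overlap another gene on either strand and 8 on the same strand. The 6 called enzymes with such an overlap are PRMT1, HDAC10, SIRT5, KAT2A, KMT2E and DOT1L. Replicate pairs within shATXN7L3 differed by a chi-square of 1.59 to 2.18 per gene and within shcontrol by 3.60 to 6.52, where sampling noise gives about 1, so no library repeats another. The values of 1 called gene of the partner lists are not reported here.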

Additional observations from a re-analysis of the deposited data

How the results depend on the processing

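Of the 20 called enzymes, 20 were called again with DESeq2 size factors, with no filter, with the stricter filter of 1 CPM in 3 libraries, with limma voom and with the replicate block (14 higher and 6 lower), and 16 with library sizes alone and 16 with DESeq2. Deviations of same-numbered libraries correlated at -0.016, 0.005 and 0.044, and those of unlike-numbered libraries at -0.072 to 0.067. No pairing by replicate number was thus seen in the values, which does not tell how the samples were prepared. Leaving out a library gave 7 to 16 higher and 1 to 9 lower enzymes and kept 11 to 19 of the 20 calls. With library sizes alone 2 enzymes were lower, and without the enzymes that overlap other genes 9 of 38 were higher and 5 lower. Over all genes, 2182 were higher and 2150 lower. DESeq2 called 1405 higher and 1603 lower, and library sizes alone gave 2955 and 1604, with the median of all genes shifted by 0.04. The depth of these libraries limits KDM4D, KDM8, SIRT4 and PRMT8.

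Class medians with library sizes alone were -0.035 for acetyltransferases, 0.023 for zinc-dependent deacetylases, 0.064 for sirtuins, 0.028 for lysine methyltransferases, 0.009 for lysine demethylases and 0.209 for arginine methyltransferases. With no filter on low counts they were -0.059 for sirtuins and 0.120 for arginine methyltransferases, which then include SIRT4 and PRMT8. Leaving out a library moved them between -0.082 and -0.036, -0.033 and 0.029, 0.001 and 0.044, -0.057 and 0.010, -0.042 and 0.015, and 0.130 and 0.198, in the same order. Pair ratios that changed sign were HDAC1 to HDAC2 (0.04, and -0.00 to 0.08 on leaving out a library), HDAC4 to HDAC5 (0.00, and -0.10 to 0.07 on leaving out a library) and SIRT1 to SIRT2 (0.02, and -0.04 to 0.11).

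Signs were followed for the called enzymes, the enzymes of the pairs and the most abundant enzyme of each class, not for every member. Among these, signs changed only for enzymes near 0 that were not called. With library sizes alone the log2 fold changes became 0.023 for HDAC4, 0.014 for HDAC5, 0.042 for EZH1, 0.010 for KMT2D, 0.006 for KDM5A and 0.020 for SETD5. With the replicate block EZH1 had 0.000, and with DESeq2 or its size factors KDM2B had -0.002. On leaving out a library the estimates ran from -0.004 to 0.032 for EP300, -0.089 to 0.038 for HDAC4, -0.069 to 0.029 for HDAC5, -0.076 to 0.077 for EZH1, -0.076 to 0.020 for KMT2D, -0.052 to 0.040 for KDM2B, -0.118 to 0.017 for KDM4C and -0.074 to 0.001 for KDM5A. The cause of these changes was not tested.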
